A study of Rattus norvegicus with 28 samples.

Results

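Lpar1 encodes lysophosphatidic acid receptor 1, and the data described here are those of its chromatin and transcript in the rat dorsal root ganglion (DRG), the cluster of sensory nerve cell bodies beside the spinal cord. The accessible regions were taken by position, as all regions that start between 75200000 and 76200000 on chromosome 5 of the rn6 genome, which gave 43 of the 56810 consensus regions. One of them, at chr5:75716406-75716663, is called the Lpar1 site, because the study assigned it to Lpar1 as the nearest annotated gene, and the other 42 regions are called its neighbours. The site was selected on its difference from naïve rats in both pain models, so its differences from naïve are given as a description without a test. For the transcript, the single gene Lpar1 was read from a count table of 32754 genes.

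Lysophosphatidic acid (LPA) is a small signalling lipid made outside cells, mainly by the secreted enzyme autotaxin, and it acts through a family of G protein-coupled receptors. LPA receptor 1 couples to several classes of G protein. In peripheral nerve it is known from Schwann cells, and LPA acting through this receptor has been linked with demyelination and neuropathic pain after nerve injury. ATAC-seq marks DNA that the Tn5 transposase can reach, so a region with more coverage was open in more of the nuclei sampled, or more open in the same nuclei, and the assay cannot tell these apart in whole tissue.

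All samples came from the ipsilateral lumbar DRGs of adult male Sprague-Dawley rats, with the ganglia of 1 rat pooled per library. In the CCI group the sciatic nerve was loosely ligated (chronic constriction injury, a model of neuropathic pain) and DRGs were taken after 14 days, and 6 ATAC-seq libraries were analysed. In the CFA group the hind paw was injected with complete Freund's adjuvant (a model of inflammatory pain) and DRGs were taken after 48 h, giving 6 ATAC-seq libraries and 2 RNA-seq libraries. The 3 naïve ATAC-seq libraries came from untreated rats, and no group received a sham operation or a vehicle injection, so surgery or injection itself cannot be told apart from the model. Both comparisons use the same 3 naïve libraries and are therefore not independent of each other. Sequencing took 2 runs for every naïve library, every CFA library and CCI replicates 1 and 2, but 1 run for CCI replicates 3 to 6. The ATAC-seq values are normalised coverage on the log2 scale in 2 separately normalised tables, one per pain model, which the authors made after downsampling their libraries. The depth of each library and the reads behind a single value are not given in the sources used here.

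The Lpar1 site, whose choice used its naïve values, was the least accessible region of its window in every naïve library. In the CCI table it read 3.02, 3.43 and 3.28 (log2) in naïve replicates 1 to 3. After CCI it read 4.09, 4.08, 4.53, 4.86, 4.34 and 4.87 in replicates 1 to 6. Every CCI library lay above every naïve library, with the closest pair of values at 4.08 and 3.43. The means were 3.24 ± 0.21 (SD, n = 3) in naïve and 4.46 ± 0.35 (SD, n = 6) after CCI, a difference of 1.22 (SE 0.22), or 2.32-fold.

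The difference after CFA had the same sign. In the CFA table the site read 3.18, 3.60 and 3.47 in naïve replicates 1 to 3. It read 4.37, 3.95, 4.37, 4.25, 4.16 and 4.68 in the CFA libraries, which are CFA a, CFA b and replicates 3 to 6. The groups did not overlap here either, since the lowest CFA library, at 3.95, stood above the highest naïve library, at 3.60. The means were 3.42 ± 0.21 (SD, n = 3) and 4.30 ± 0.25 (SD, n = 6), a difference of 0.88 (SE 0.16), or 1.84-fold. Of all 56810 regions, 0.598% had a larger difference after CCI and 0.234% after CFA, and groups that did not overlap with the model higher made up 3.85% of regions for CCI and 5.39% for CFA. Since the choice of the site used these contrasts, nothing is read from its place among the other regions.

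**Figure D1:**
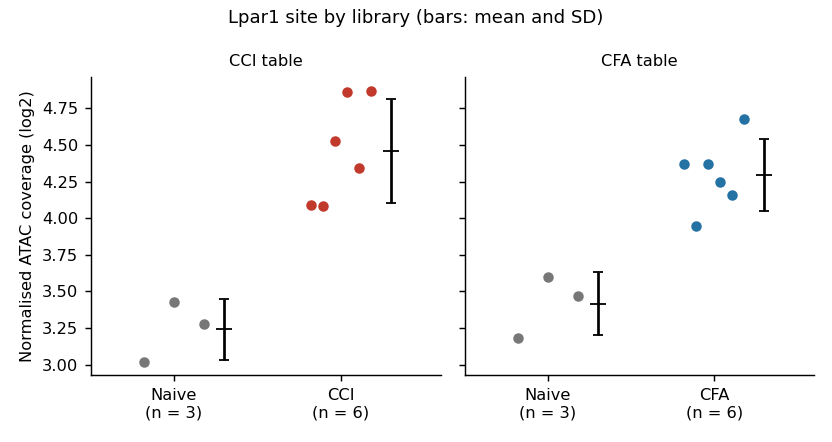
Normalised ATAC-seq coverage (log2) at the Lpar1 site in each library, with the CCI table on the left and the CFA table on the right. Points are libraries, and bars give the mean and SD of each group. All 6 CCI libraries (4.08 to 4.87) and all 6 CFA libraries (3.95 to 4.68) sit above the 3 naïve libraries of the same table.

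The site was narrow and weak beside the regions around it. It spanned 257 bp, whereas regions of the window spanned 222 to 1717 bp with a median of 561 bp, and 3 of the 42 neighbours were narrower. Its naïve mean in the CCI table, 3.24, was below that of the next lowest region, 4.07, and far below the window's median of 5.35. Only 0.215% of all regions had a lower naïve mean. The choice of the site used these naïve values and favours low ones, so its low naïve level is given as a description only. After CCI the site was the 8th lowest of the 43 regions by mean, and after CFA it was the 2nd lowest, so it stayed in the lower part of the window in both models. Few distinct coverage values lay below it, 9 to 12 in the naïve libraries, 13 to 26 in the CCI libraries and 12 to 21 in the CFA libraries. This sets a coarse limit on the precision of each reading, and by this count CFA b, at 12, was level with naïve replicate 2. The median neighbour had 50.5 to 53.5 such values below it in naïve, 27.0 to 54.5 in CCI and 42.5 to 68.0 in CFA libraries. The counts are therefore not on one scale across libraries.

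A percentile within each library, which does not depend on the scale of a table, re-expresses the same values and is no second test. The site was selected on its difference from naïve, so its percentiles beside naïve are a description. Among the 56810 regions of a library the site stood at the 0.36th, 1.25th and 0.818th percentile in naïve replicates 1 to 3. In the CFA libraries it stood between the 3.06th and the 15.5th percentile, with a median of 7.62. In CCI replicates 1 and 2, sequenced in 2 runs like the naïve libraries, it stood at the 7.01th and 6.60th percentile. In CCI replicates 3 to 6, sequenced in 1 run, it stood between the 11.7th and the 28.4th percentile. The CCI libraries thus separated by run number at this site, with log2 means of 4.08 ± 0.01 (SD, n = 2) for 2 runs and 4.65 ± 0.26 (SD, n = 4) for 1 run. With the 2-run libraries alone the difference between CCI and naïve was 0.84 (SE 0.19), or 1.79-fold, and the part of the run number in the larger value was not tested.

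**Figure D2:**
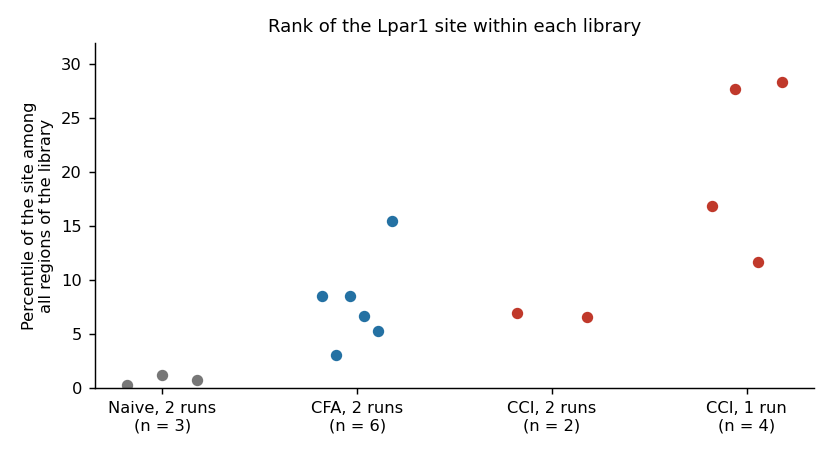
Percentile of the Lpar1 site among the 56810 regions of each library, by group and by number of sequencing runs, with 1 point per library. The site was selected on its difference from naïve. Naïve libraries lie at or below the 1.25th percentile, the CFA and the 2-run CCI libraries between the 3.06th and 15.5th, and the 1-run CCI libraries between the 11.7th and 28.4th.

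Whether the site differed between the pain models was tested, since its choice did not use that contrast itself. The choice did use the values of both models and their spread, so the p values are not independent of it. For this the 15 libraries were set on one scale by their ranks, on which the site averaged 4.56 ± 0.36 (SD, n = 6) after CCI and 4.20 ± 0.24 (SD, n = 6) after CFA. The difference was 0.35 (SE 0.17, 95% interval 0.00 to 0.70), with p = 0.0479 and an adjusted p of 0.184 by limma with Benjamini-Hochberg adjustment over all regions. A p below 0.05 was reached by 26.5% of all regions in this contrast. The difference did not pass the adjusted threshold, and with the 2-run libraries alone it was -0.03 (SE 0.18, 95% interval -0.42 to 0.37, p = 0.879, adjusted p = 0.95 by limma), so that its sign turned. An exact two-sided permutation test of the percentiles gave p = 0.0952 for a mean difference of 8.45 percentile points.

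The neighbours differed from naïve in both directions, with 14 above and 28 below it after CCI and 26 above and 16 below it after CFA. The mean over the 42 neighbours was 5.59 ± 0.03 (SD, n = 3) in naïve and 5.51 ± 0.12 (SD, n = 6) after CCI, and 5.89 ± 0.03 in naïve and 5.94 ± 0.09 after CFA. The site minus this mean was -2.55 to -2.17 in the naïve libraries of the CCI table and -1.39 to -0.62 after CCI. In the CFA table it was -2.67 to -2.29 in naïve and -1.92 to -1.22 after CFA. These values describe a site selected on the same contrasts, and nothing is read from them.

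None of the 42 neighbours reached the study's threshold for a differentially accessible region, an unadjusted p below 0.001 by limma with a prior variance common to all regions, in either model. Over all regions 0.91% did so for CCI and 1.12% for CFA. None passed an adjusted p of 0.05 either, the smallest being 0.134 for CCI and 0.118 for CFA. When the prior variance followed the mean coverage, the region at 76038899 passed the adjusted threshold in both models and the region at 75660955 passed it for CFA. Differences of the neighbours from naïve ran from -0.81 to 0.35 after CCI, with a median of -0.09 against -0.04 over all regions, and 39 of the 42 were smaller than 0.5 in size. After CFA they ran from -0.42 to 0.48, with a median of 0.05 against 0.01 over all regions, and all 42 were smaller than 0.5 in size.

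**Figure D3:**
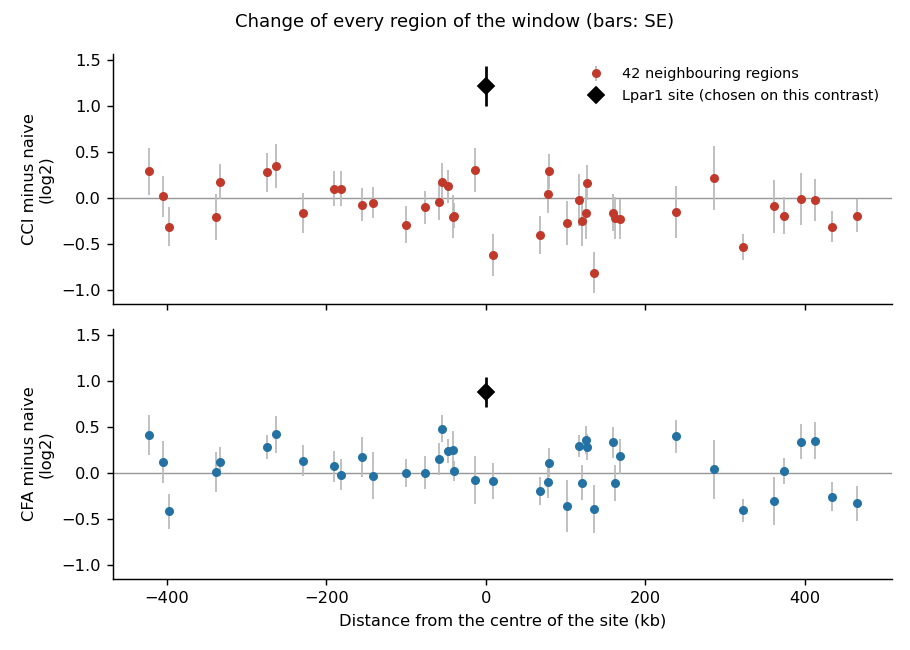
Difference from naïve (log2) of each of the 43 regions against the distance of its centre from the centre of the Lpar1 site (kb), for CCI above and CFA below. Circles are the 42 neighbours, the diamond is the site, and bars give the limma SE. The site, selected on these contrasts, is at 1.22 and 0.88, and the neighbours range from -0.81 to 0.35 after CCI and from -0.42 to 0.48 after CFA.

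At the looser unadjusted p below 0.05, after CCI 3 of the 42 neighbours were lower and 0 were higher, shares of 7.14% and 0%. Over all regions 7.45% were lower and 8.59% were higher at this threshold, so the share of lower neighbours was near the background. Those 3 regions start at 75725790, 75852195 and 76038899, and the middle one was named after its values were seen. In 3 neighbours, 7.14%, the CCI libraries lay wholly below the naïve libraries, where 5.26% of all regions did, and in 0 neighbours did they lie wholly above. These 3 start at 75676329, 75852195 and 76038899. After CFA 2 neighbours were lower (4.76%, against 9.45% of all regions) and 5 were higher (11.9%, against 9.5%). The lower ones start at 75318155 and 76038899, and the higher ones at 75441394, 75660955, 75833657, 75841470 and 75955463. The groups did not overlap in 1 neighbour with CFA lower, at 76038899, where 5.65% of all regions did so, and in 1 with CFA higher, at 75441394, against 5.39%. The CFA counts rested on single libraries, as 2 neighbours in all passed without naïve replicate 2, 4 without CFA replicate 4 and 3 without CFA replicate 5, against 7 with all libraries.

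None of the 4 regions nearest to the site, 2 on each side, passed an adjusted p of 0.05 in either model. On the lower side the nearest region, chr5:75702285-75702729, lies 14 kb away and is 444 bp wide. It read 4.65, 4.25 and 4.99 in the naïve libraries and 4.30, 4.74, 5.17, 5.38, 5.10 and 4.93 after CCI, so the groups overlapped. Its difference was 0.31 (SE 0.24, 95% interval -0.22 to 0.84, p = 0.227, adjusted p = 0.560 by limma), and with the 2-run libraries alone it turned to -0.11. After CFA it read 3.87 in CFA a and 4.75 to 5.02 in the other five libraries, against 4.43 to 5.20 in naïve, a difference of -0.08 (SE 0.26, p = 0.775, adjusted p = 0.904 by limma).

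On the higher side the nearest region, chr5:75725790-75726094, lies 9.4 kb from the site and is 304 bp wide, and its CCI libraries leaned the opposite way. It read 4.60, 4.09 and 4.62 in naïve and 3.49, 3.39, 3.85, 3.72, 4.37 and 4.09 after CCI. The 2 CCI libraries at 4.37 and 4.09 reached into the naïve range, and the other four lay below it. The difference was -0.62 (SE 0.23, 95% interval -1.12 to -0.12, p = 0.0198) and did not pass adjustment (adjusted p = 0.225 by limma). The p stayed below 0.05 in 7 of 9 leave-one-out fits and was 0.0564 (adjusted p = 0.301 by limma) when the prior variance followed the mean coverage, while the 2-run libraries alone gave a difference of -1.0. After CFA the region read 4.15, 4.57, 5.03, 4.32, 4.70 and 4.49 against 4.79, 4.28 and 4.83 in naïve, with a difference of -0.09 (SE 0.20, p = 0.655, adjusted p = 0.840 by limma). Between the models it was lower after CCI by a difference of -0.53 (SE 0.18, p = 0.0097, adjusted p = 0.0743 by limma on the rank scale), which again missed the adjusted threshold.

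The second region on the lower side, chr5:75676329-75677428, was a strong, wide region of 1099 bp at 39.7 kb from the site. In the CCI table its naïve libraries read 7.81, 7.74 and 7.89 and its CCI libraries 7.64, 7.53, 7.61, 7.70, 7.64 and 7.64. All CCI libraries lay below all naïve libraries, by a small amount of -0.19 (SE 0.14, 95% interval -0.49 to 0.11, p = 0.194, adjusted p = 0.526 by limma). In the CFA table it averaged 8.36 ± 0.08 (SD, n = 3) in naïve and 8.38 ± 0.08 (SD, n = 6) after CFA. The difference was 0.02 (SE 0.11, 95% interval -0.22 to 0.25, p = 0.886, adjusted p = 0.954 by limma). The distance to Lpar1 that the study lists for the site is close in size to the 39.7 kb of this region. Whether the gene starts on this side of the site was not tested. Which of the window's regions covers the start of the Lpar1 transcript was not analysed here, because no rn6 annotation was used.

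The second region on the higher side, chr5:75783946-75784509, lies 67.7 kb from the site. It averaged 5.19 ± 0.16 (SD, n = 3) in naïve and 4.79 ± 0.34 (SD, n = 6) after CCI. The difference was -0.40 (SE 0.21, p = 0.0774, adjusted p = 0.365 by limma), and -0.62 with the 2-run libraries alone. After CFA the difference was -0.20 (SE 0.15, p = 0.204, adjusted p = 0.494 by limma). The groups overlapped in both tables.

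At the most accessible region of the window every library of both models read below every naïve library. This region, chr5:76038899-76040616, is 1717 bp wide and lies 323.2 kb from the site. In the CCI table it read 8.60, 8.58 and 8.45 in naïve and 8.10, 8.09, 7.85, 7.95, 8.13 and 7.97 after CCI. In the CFA table it read 9.20, 9.18 and 9.04 in naïve and 8.91, 8.81, 8.79, 8.74, 8.55 and 8.57 after CFA. The difference was -0.53 (SE 0.14, p = 0.00319, adjusted p = 0.135 by limma) for CCI and -0.41 (SE 0.12, p = 0.00539, adjusted p = 0.118) for CFA. Neither passed the threshold of 0.001 with a prior variance common to all regions, but both did when the prior followed the mean coverage, with p = 0.000139 (adjusted p = 0.0215 by limma) for CCI and p = 3.79e-05 (adjusted p = 0.00302) for CFA. Every leave-one-out fit kept p below 0.05, 9 of 9 in each model.

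**Figure D4:**
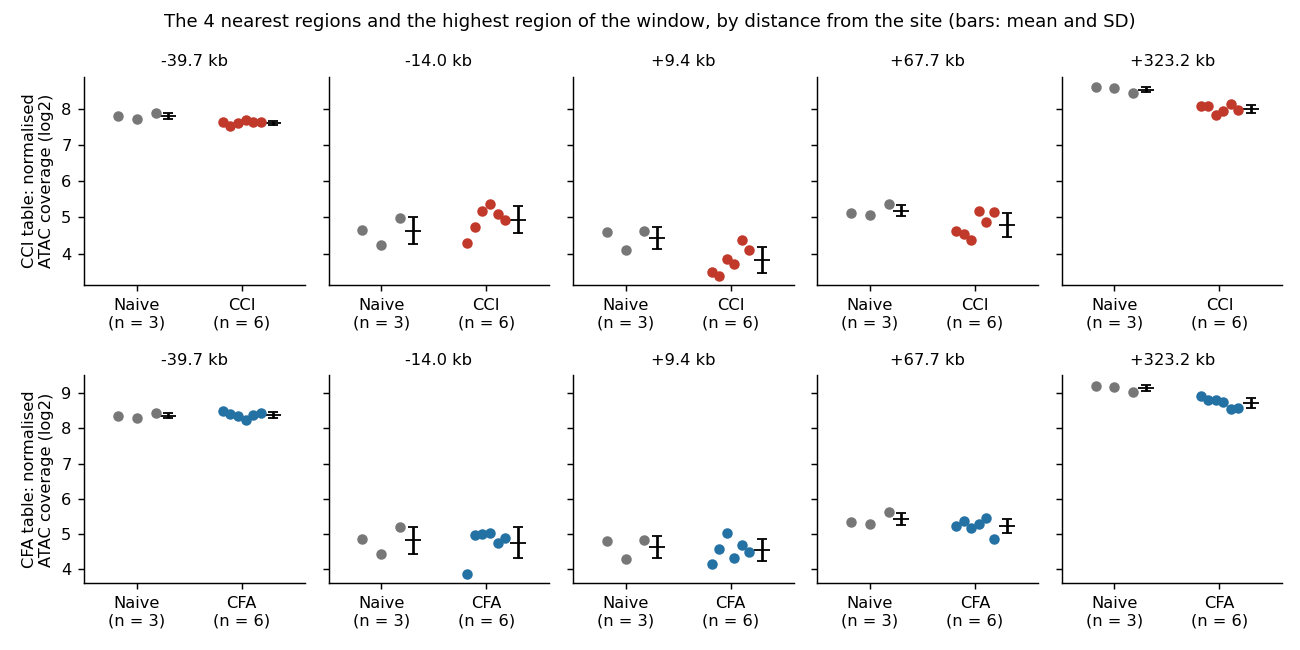
Normalised ATAC-seq coverage (log2) of the 4 regions nearest to the Lpar1 site and of the most accessible region of the window, labelled by the distance of their centres from the site, with the CCI table above and the CFA table below. Points are libraries, bars give the mean and SD, and n is under each group. The region at 39.7 kb on the lower side stays within 7.53 to 7.89 in the CCI table, and the region at 323.2 kb lies below naïve in all 6 libraries of each model.

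The region chr5:75852195-75852495, named after its values were seen, was one of the 3 neighbours with p below 0.05 after CCI. It read 4.92, 4.61 and 4.44 in naïve and 4.37, 4.08, 3.44, 3.60, 3.60 and 4.0 after CCI, with no overlap. The difference was -0.81 (SE 0.22, 95% interval -1.29 to -0.33, p = 0.00314, adjusted p = 0.134 by limma). With the 2-run libraries alone it was -0.44. After CFA the difference was -0.39 (SE 0.26, p = 0.170, adjusted p = 0.454 by limma), and the groups overlapped. Without CCI replicate 1 this region alone of the neighbours passed the study's threshold of 0.001 for CCI, with a difference of -0.92 and an adjusted p of 0.0601 by limma.

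Among the regions with p below 0.05 after CFA, named after their values were seen, chr5:75660955-75661443 had the largest positive difference, 0.48 (SE 0.15, p = 0.00984, adjusted p = 0.143 by limma). When the prior variance followed the mean coverage it passed adjustment, with p = 0.00263 and an adjusted p of 0.0437 by limma. It lies 55.3 kb from the site on the lower side. It read 6.66, 6.05 and 6.46 in naïve and 6.70, 6.65, 6.98, 6.93, 6.89 and 7.04 in the CFA libraries. The single CFA library at 6.65 fell within the naïve range, by the margin to naïve replicate 1 at 6.66. After CCI the region differed by 0.18 (SE 0.20, p = 0.377, adjusted p = 0.692 by limma), which turned to -0.10 with the 2-run libraries alone.

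Between the pain models, 7 of the 42 neighbours (16.7%) had p below 0.05 by limma, all with the lower value after CCI. Over all regions 26.5% had such a p in either direction. The share of all regions lower after CCI was not counted, so nothing is read from the direction. None of the 42 neighbours passed an adjusted p of 0.05, and the smallest was 0.0535. The median difference of the neighbours between CCI and CFA was -0.13 on the rank scale, against -0.05 over all regions.

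The deviations of each neighbour from its group means were also set beside those of the site, and the 3 regions with the highest mean Pearson r of the 42 were taken. The first, chr5:75318155-75318864 at 398.0 kb, had a mean Pearson r of 0.64 over the tables (0.80 in the CCI table and 0.49 in the CFA table, over 9 libraries each, of which the 3 naïve libraries are shared). It differed from naïve by -0.31 (SE 0.21, p = 0.161, adjusted p = 0.490 by limma) after CCI and by -0.42 (SE 0.19, p = 0.0499, adjusted p = 0.264) after CFA. The CFA value had p below 0.05 in 3 of 9 leave-one-out fits, and the CCI value was -0.61 with the 2-run libraries alone. The other two, chr5:75842886-75843924 at 126.9 kb and chr5:75441394-75442627 at 274.5 kb, had mean r of 0.52 and 0.46. They differed from naïve by 0.17 (SE 0.19) and 0.28 (SE 0.21) after CCI, and by 0.28 (SE 0.14) and 0.28 (SE 0.13) after CFA. With the 2-run libraries alone the CCI differences turned to -0.08 and -0.09. All 3 regions separated the CCI libraries by run number, as the site did. They were picked for following the site's deviations, so this separation follows in part from the choice. The share of all regions that separate in this way was not counted. The 2-run and 1-run libraries read 4.44 to 4.67 and 4.88 to 5.16 at 75318155, 7.37 to 7.64 and 7.68 to 8.0 at 75842886, and 7.34 to 7.45 and 7.81 to 8.17 at 75441394. The part of the run number in r was not tested. Among the 4 nearest regions r differed between the tables. It was 0.65 in the CCI table and -0.68 in the CFA table at 75783946, 0.50 and -0.20 at 75702285, 0.40 and 0.11 at 75676329, and 0.25 and -0.26 at 75725790. These correlations describe libraries that also share normalisation within a table, and no test was attached to them.

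By name only, the genes around Lpar1 in the GRCr8 annotation of RefSeq include Musk on one side, which encodes a receptor kinase of the neuromuscular synapse, and Or2k2 on the other, an olfactory receptor gene. Further out lie Svep1, an extracellular matrix gene, and Ecpas, which encodes a proteasome adaptor. The window may therefore hold accessible regions of these genes, and no region was assigned to any of them here.

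Lpar1 transcript was readily measured in the DRG after CFA, where the 2 libraries gave similar levels. The gene (ENSRNOG00000013656) had 1411 of 10520647 counts in replicate 1 and 3568 of 28825688 in replicate 2. Scaled to the library total, as counts per 1000000 counts (CPM), this was 134 (95% exact Clopper-Pearson interval 127 to 141) and 124 (120 to 128), and intervals here cover counting error only. The libraries averaged 129 ± 7.31 CPM (SD, n = 2). Their log2 ratio of -0.12 was exceeded in size by 53.7% of the 15115 genes that reached 10 counts in each library, so Lpar1 varied between these 2 rats about as much as the typical gene. No naïve or CCI RNA-seq library was analysed here, so these levels cannot be set against naïve, and the accessibility of the site could not be compared with the transcript across groups.

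The other genes listed for LPA signalling were receptors, genes for LPA formation and breakdown, G proteins and effectors, and Cacna2d1. Not all of them are specific to LPA. Those read were the ones that the study's lists of genes pair with a symbol. The study's lists were drawn up on these models and are not an independent sample of the pathway. CPM does not correct for transcript length, so levels are compared between libraries of a gene and not between genes. Of the 6 LPA receptors, 3 could be matched. Lpar4 had 2.85 and 3.30 CPM and Lpar6 had 8.46 and 9.05 CPM in replicates 1 and 2, and for both the counting intervals of the libraries overlapped.

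Of 16 genes for the formation and breakdown of LPA, 3 were matched. Plpp1, a phosphatase that degrades LPA outside cells, had 105 and 104 CPM. Plppr4, a brain-enriched relative of these phosphatases, had 19.9 and 19.5 CPM. Gdpd1, a phosphodiesterase that can form LPA, had 30.8 and 28.8 CPM. All 3 differed by no more than 0.10 on the log2 scale between the libraries.

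Of 20 G proteins and effectors, 6 were matched. Gna12, a G protein alpha subunit, had 144 and 150.0 CPM, and Arhgef1, a guanine nucleotide exchange factor, had 32.7 and 30.6 CPM. The protein kinase gene Rock1 had 67.5 and 72.7 CPM and the adenylyl cyclase Adcy2 had 25 and 26.5 CPM. The transcriptional coactivators Yap1 and Wwtr1 had 26.8 and 26.9 CPM and 21.0 and 22.0 CPM. All 6 were above the minimum of 10 counts in both libraries, with log2 ratios between -0.09 and 0.11. Cacna2d1, the calcium channel subunit bound by gabapentin, had 133 and 163 CPM. Its log2 ratio of 0.29 was the largest of the 13 genes listed for LPA signalling, and 20.2% of the 15115 genes exceeded it in size.

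**Figure D5:**
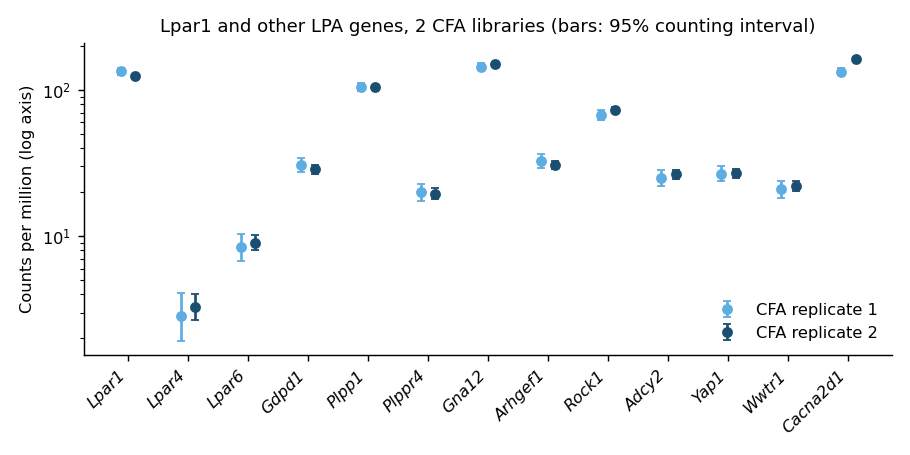
CPM (log axis) of Lpar1 and 12 other genes listed for LPA signalling in the 2 CFA RNA-seq libraries, with bars for the 95% exact counting interval. Lpar1 lies at 134 and 124 CPM, and the libraries differ by at most 0.29 on the log2 scale, at Cacna2d1.

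Marker genes of cell types were read in the same libraries. Only markers in the study's gene lists could be matched, and those lists hold genes measured in these ganglia. The presence of a matched marker was therefore fixed in advance and is no check of the tissue. All 12 matched sensory neuron markers of 16 were above 10 counts, summing to 36622 and 37818 CPM, with the neurofilament gene Nefm at 11574 and 11586 CPM. All 8 matched Schwann cell markers of 12 were present, summing to 4943 and 4796 CPM, with the myelin gene Mbp at 2089 and 1981 CPM. Satellite glia (3 of 7 matched) summed to 329 and 306 CPM, fibroblasts (2 of 4 matched, Col1a1 and Col3a1) to 1104 and 1034 CPM, and endothelium (1 of 4 matched, Kdr) to 22.4 and 27.3 CPM. No symbol of the 5 macrophage or 4 skeletal muscle markers could be matched, so those cells were not analysed here. The matched markers thus give levels only, and which cell types carried Lpar1 was not tested.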

How the data were processed

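ATAC-seq was analysed in 15 libraries (6 CCI, 6 CFA, 3 naïve) and RNA-seq in 2 CFA libraries, grouped by the sample labels. Reads were trimmed and aligned to rn6 with Bowtie2, filtered for mapping quality and duplicates, shifted for Tn5, downsampled and counted in consensus MACS2 regions. The authors deposited the result as log2 normalised coverage in a table per pain model. All columns of a table share nearly 1 distribution, as quantile normalisation gives, a step the methods do not name. This normalisation makes values relative. The paper's target for downsampling lies above the average number of insertion sites that it reports, so downsampling need not have equalised the libraries. Distinct coverage values numbered 922 to 1234 in the naïve libraries, 544 to 919 in the CCI libraries and 907 to 1207 in the CFA libraries. Whether this affected the values of the site was not tested. The authors deposited RNA-seq as raw counts per Ensembl gene (HISAT2, featureCounts), with 10520647 and 28825688 counts per library. The names of 2 CFA columns are shared with RNA-seq samples, and these libraries are written CFA a and b.

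Regions were fitted with limma 3.58.1 in R 4.3.3 over all 56810 regions, two-sided, with Benjamini-Hochberg adjustment over all of them. For CCI against CFA each library received a common distribution by its own ranks, as the 3 naïve libraries have the same ranks in both tables. Symbols were paired with Ensembl genes only through the study's gene lists. The methods were tested on simulated data. Named in full were the site, the 2 nearest regions on each side, the highest region of each table, any region with p below 0.001 and the 3 regions following the site most closely, and regions outside this rule are marked as named after their values were seen. The members and gene lists were chosen with earlier results of these data known. Alternatives were other normalisation (cyclic loess), an intensity trend, sample quality weights, a filter on the lower quartile, a replicate block, 2-run libraries and single libraries left out, and for RNA-seq the scaling of edgeR 4.0.16 and DESeq2 1.42.0. Sequences, the rn6 annotation and the authors' own test results were not used here.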

Additional observations from a re-analysis of the deposited data

Results flagged for a closer look

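At the nearest region on the lower side of the Lpar1 site, chr5:75702285-75702729, the library CFA a read 3.87 while the other five CFA libraries lay between 4.75 and 5.02. The gap was 0.76 of the range of the group, above the critical ratio of 0.625 for 6 samples. Chance marks about 1 in 20 groups, and 18 groups were examined. Without CFA a the difference from naïve at this region was 0.10 in place of -0.08, and neither value passed the test.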

How the results depend on the processing

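The sign of the site's difference from naïve held in all alternatives that gave a value. The site was selected on this difference, so the kept sign is a description and no test. The groups did not overlap, so leaving out libraries could not have turned it. Leaving out single libraries gave 1.10 to 1.31 for CCI and 0.76 to 0.97 for CFA, and cyclic loess gave 1.25 and 0.95. The 2-run libraries alone gave 0.84 for CCI. The filter on the lower quartile removed the site in both tables, so it has no value there. CCI minus CFA at the site ran from 0.27 to 0.43 without single libraries, with adjusted p between 0.104 and 0.329 by limma, and turned to -0.03 with the 2-run libraries. The cause was not tested.

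The number of neighbours with p below 0.001 went from 0 to 1 with the intensity trend, in CCI and in CFA, and lay between 0 and 1 without single libraries for CCI and at 0 for CFA. At p below 0.05 the filter on the lower quartile left 1 neighbour for CCI, among the 34 that it kept. Of the 3 neighbours called without the filter, 75725790 and 75852195 had low coverage. Their naïve means were 4.44 and 4.66 in the CCI table, below the window's median of 5.35. Both were among the neighbours of lowest mean coverage that the filter removed. Single libraries left out gave 2 to 4 for CCI and 2 to 8 for CFA. Lpar1 read 124 to 134 CPM in single libraries and 129 CPM under each other scaling.

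Same-numbered CCI and naïve samples shared only a number (correlations of their deviations -0.058, 0.073 and -0.029). A fit with a replicate block gave 0.99 (SE 0.22) for the site after CCI, and 0 neighbours at p below 0.001 and 4 at p below 0.05. No paired analysis was possible for CFA because the columns of that table and the naïve columns share 1 number. With the 2-run libraries alone the CCI difference changed sign at the named neighbours 75702285, 75441394, 75842886, 75660955, 75833657 and 75955463. The depth per ATAC-seq library, which is not given in the sources used here, and the weak signal of the site limit how finely its levels can be ordered.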
